A study of Mus musculus with 58 samples.

Results

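Lithium and fluoxetine were set directly against each other in prefrontal cortex of wild-type (WT) mice of the C57BL/6J strain, with 8 lithium libraries (4 female, 4 male) and 10 fluoxetine libraries (5 female, 5 male). These are 18 of the 58 libraries of the study, taken by genotype and drug from the sample titles, with both sexes given equal weight. The 10 WT vehicle libraries (5 female, 5 male) are not part of the difference between the drugs and show where each drug lay against vehicle, but like all groups they enter the estimate of the spread. Pups took up lithium, fluoxetine or vehicle with the milk of their mothers from postnatal day 3 to day 24, for 3 weeks, and were examined on day 25. The other 30 libraries come from mice heterozygous (HT) for a Tbl1xr1 knock-in allele, 10 for each treatment, and the 10 HT lithium and 10 HT fluoxetine libraries served as the same contrast in samples that the WT contrast does not hold. The labels give no drug dose, no dam and no litter, and do not say that each library is a separate animal. Because a mother's drug reaches her whole litter, drug and litter cannot be told apart, and the p-values measure the spread between libraries.

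Lithium, the classical mood stabiliser, inhibits the kinase GSK3, which marks beta-catenin for destruction, and inhibits inositol monophosphatase, which recycles inositol for phosphoinositide signalling. Fluoxetine blocks the serotonin transporter and so prolongs the action of serotonin released in the cortex. Both drugs are given over weeks before mood responds, and both have been studied for effects on the neurotrophin BDNF.

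Values are read counts divided by a size factor per library, written here as normalised read counts. The recovered read total was 24733816 to 31656587 per WT lithium library, 24655357 to 33645175 per WT fluoxetine library and 23528139 to 35008274 per WT vehicle library. The dissections differed in how much neighbouring tissue they held. The summed normalised read count of 13 striatal marker genes was 11504 to 15183 in WT lithium libraries and 10556 to 28083 in WT fluoxetine libraries, with 24289 in WT fluoxetine female 1 and 28083 in WT fluoxetine male 3. In WT vehicle libraries it was 10398.5 to 22195, with 22195 in WT vehicle female 4 and 19798 in WT vehicle male 4. The sum of 12 olfactory bulb genes was 6798 to 40179 with lithium, 8802 to 45973 with fluoxetine and 7326 to 49757 with vehicle, so it varied widely within each group. Markers of upper-layer neurons summed to 44177 to 52861.5 with lithium and 40077 to 53181 with fluoxetine, and no cortical marker was at 0 in any WT drug library. Among WT libraries, WT vehicle female 4 held choroid plexus, with a sum of 33283 over 8 marker genes where WT lithium libraries had 223 to 448. In the HT contrast, HT lithium male 1 held it too. It had 22674.9 normalised reads of the choroid plexus gene Ttr, where WT vehicle female 4 had 29769. The median HT change between lithium and fluoxetine was 0.56 for the 8 genes, and all 8 lay above 0.

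Between the drugs, 802 of 16606 genes differed (limma, Benjamini-Hochberg adjusted p under 0.05), which is 4.83% of the genes tested. Lithium was higher than fluoxetine for 435 of them (2.62%) and lower for 367 (2.21%), and these 802 genes are said below to be called higher or lower. An unadjusted p under 0.05 was reached by 3382 genes (20.4%). With upper-quartile rescaling of the libraries the split was 311 higher and 455 lower. The differences were small. The median change was 0.17 on the log2 scale, or 1.13-fold, among the genes higher with lithium and -0.26, or 0.835-fold, among those lower with lithium. For 6 genes (0.0361%) the libraries of the 2 drugs did not overlap, and all 6 were called. They were Ift80, Mkks and the noncoding Lrp8os3, higher with lithium, and Eml2, Fahd2a and Pias3, lower with lithium, named after their values were seen. Ift80 encodes a subunit of the transport machinery of cilia and Mkks a chaperonin-like protein of the Bardet-Biedl syndrome complex. Ift80 had 792 to 915 normalised reads with lithium and 618 to 732 with fluoxetine, a change of 0.28 ± 0.044 (SE).

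The spread was estimated over all 12 groups of the study. When the model was fitted to WT lithium and WT fluoxetine libraries alone, 100 genes were called, 46 higher and 54 lower, and 96 of them were among the 802. Leaving out WT fluoxetine male 1 gave 1498 calls and leaving out WT lithium female 4 gave 1267. Fewer calls, between 342 and 501, were made without WT lithium female 1 (342), WT fluoxetine male 5 (353), WT fluoxetine male 2 (386), WT lithium female 2 (395), WT lithium male 4 (413), WT lithium male 2 (435), WT fluoxetine female 3 (470) or WT fluoxetine female 5 (501). The 48 called genes that the naming rule picked kept their direction in every one of the 18 fits that left out 1 library.

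Each of the 802 genes was then placed against the WT vehicle mean, to see which drug stood away from it. Both of these differences use the same vehicle libraries, and a gene picked for a gap between the drugs tends to have vehicle in the gap, which was so for 749 of the 802. Lithium lay farther from vehicle for 374 genes and fluoxetine for 428. Lithium lay at least 2 times as far for 188 genes and fluoxetine for 233, and for the remaining 381 neither did. Taken alone, lithium against vehicle called 5 genes (0.0301%), 2 higher (0.012%) and 3 lower (0.0181%), with 1558 (9.38%) at an unadjusted p under 0.05. None was called without any one of 11 of these 18 libraries. Of the 5, Ctnnb1, Ppp1r21 and Atf4 were also called between the drugs. Fluoxetine against vehicle called 61 genes (0.367%), 26 higher (0.157%) and 35 lower (0.211%), with 2221 (13.4%) at an unadjusted p under 0.05. Of the 61, 31 were also called between the drugs. No gene was called for both drugs, and 768 of the 802 were called for neither.

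**Figure D1:**
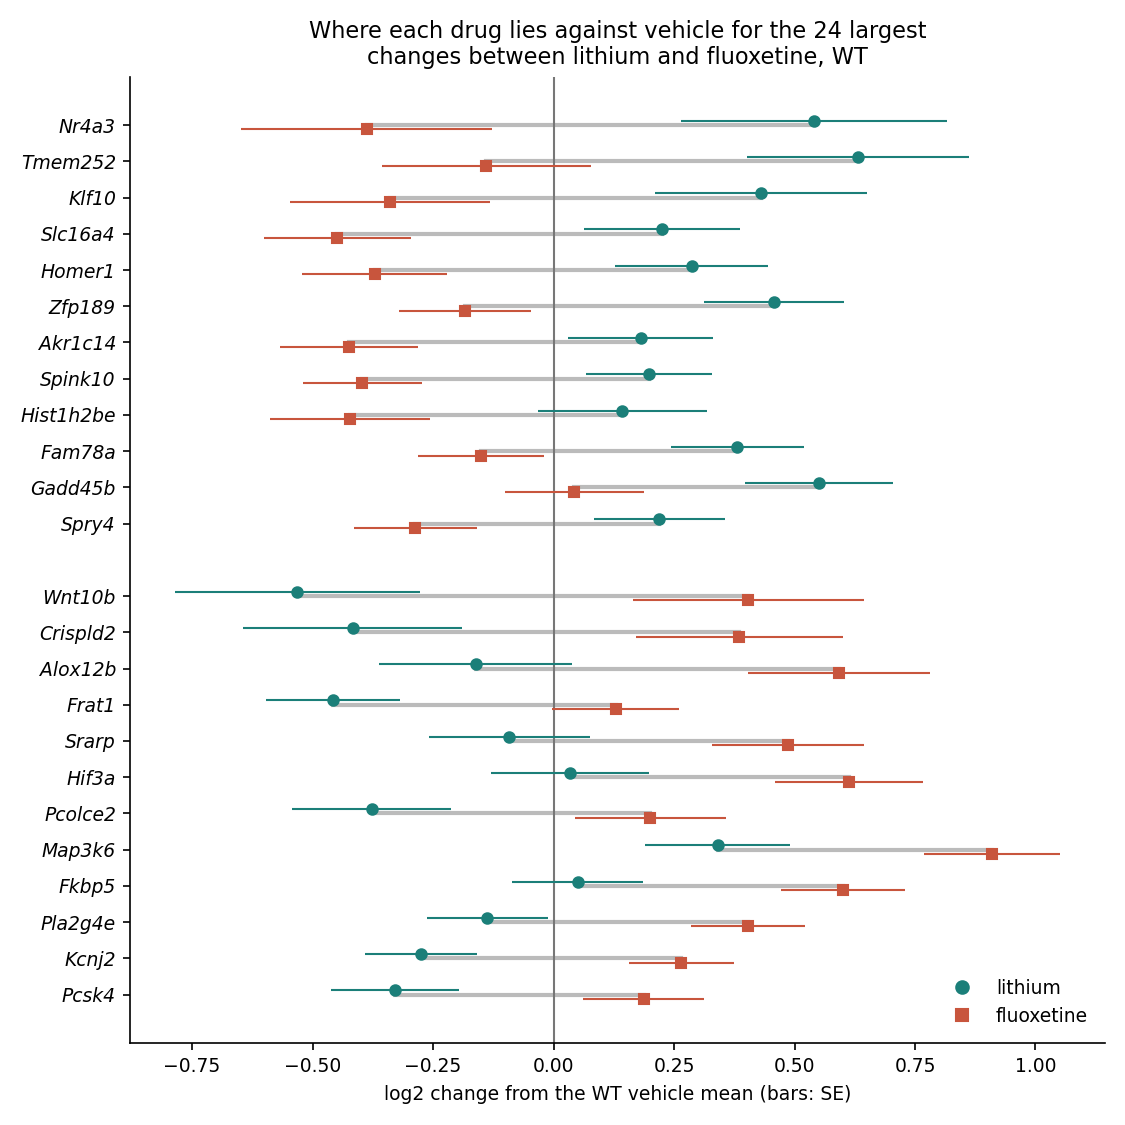
Log2 change from the WT vehicle mean (x axis, bars are SE) for lithium (circles) and fluoxetine (squares), for the 12 largest called positive and the 12 largest called negative changes between the drugs that the naming rule picked (mean of 50 or more). Gadd45b, Fam78a and Frat1 show lithium away from the vehicle line, Map3k6, Fkbp5 and Hif3a show fluoxetine away from it, and most others show both drugs on opposite sides.

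Many genes of the endoplasmic reticulum chaperone system were higher with lithium than with fluoxetine. In the list of stress response genes (unfolded protein response together with integrated stress response), 10 of 21 tested members (47.6%) were called higher and none lower, and all 21 changes were above 0. Their median was 0.19, against -0.001 over all genes tested, of which 2.62% were called higher. This list and those below were chosen with earlier results of these data known. The shares therefore describe the members and are no test of the lists. The unfolded protein response raises chaperones and protein disulfide isomerases when unfolded proteins collect in the endoplasmic reticulum. Its transcription factor ATF6 acts at the endoplasmic reticulum stress response element (ERSE), and XBP1 and ATF4 serve its other branches. The called members were the calcium-binding lectin chaperone Calr, the HSP70 and HSP90 chaperones Hspa5 and Hsp90b1, the co-chaperones Dnajb11 and Sdf2l1, the disulfide isomerases Pdia3, Pdia4 and Pdia6, the secreted factor Manf, and Atf4.

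The consensus ERSE, the letters CCAAT and CCACG with 9 free bases between them, was searched on both strands of RefSeq promoter windows (GRCm38.p6, 250 bases before to 50 bases after each start). It was found in 0.119% of 32851 windows and in 0.137% of the 27025 genes with a window. Of the 19 list members with a window, 6 held it, and 4 of the 9 called members with a window did, namely Hspa5, Hsp90b1, Calr and Pdia6. The other pair, Dnajc3 and Creld2, was not called between the drugs. The list was written to hold genes of the response that this element serves, so its share is no test of the drugs. A match describes the letters and shows no binding. The windows of the 4 called genes are given because they carry the letters that these genes share, with the fixed letters of each match in capitals, read 5′ to 3′ on the gene's strand. The window of Hspa5 lies at chr2:34771840-34772139 on the plus strand, that of Hsp90b1 at chr10:86705395-86705694 on the minus strand, that of Calr at chr8:84846882-84847181 on the minus strand and that of Pdia6 at chr12:17266339-17266638 on the plus strand. Hsp90b1 holds 2 matches and the others 1 each.
Hspa5: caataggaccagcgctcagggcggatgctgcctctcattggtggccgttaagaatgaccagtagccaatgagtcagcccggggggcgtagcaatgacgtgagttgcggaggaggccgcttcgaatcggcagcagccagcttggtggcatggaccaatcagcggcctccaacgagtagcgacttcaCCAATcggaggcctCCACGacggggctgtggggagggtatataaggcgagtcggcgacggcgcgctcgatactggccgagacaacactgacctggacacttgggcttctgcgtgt
Hsp90b1: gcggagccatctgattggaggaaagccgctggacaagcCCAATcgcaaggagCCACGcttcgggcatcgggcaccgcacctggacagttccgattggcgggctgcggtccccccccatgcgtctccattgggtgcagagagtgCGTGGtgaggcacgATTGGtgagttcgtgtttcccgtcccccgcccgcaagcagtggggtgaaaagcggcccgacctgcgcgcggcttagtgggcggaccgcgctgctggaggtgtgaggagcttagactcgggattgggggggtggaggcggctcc
Calr: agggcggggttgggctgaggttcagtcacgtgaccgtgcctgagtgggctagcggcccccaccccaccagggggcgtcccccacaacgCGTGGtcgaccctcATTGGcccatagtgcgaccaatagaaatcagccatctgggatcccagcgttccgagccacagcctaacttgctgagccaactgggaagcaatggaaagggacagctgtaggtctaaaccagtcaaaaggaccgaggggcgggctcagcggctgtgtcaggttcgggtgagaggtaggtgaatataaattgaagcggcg
Pdia6: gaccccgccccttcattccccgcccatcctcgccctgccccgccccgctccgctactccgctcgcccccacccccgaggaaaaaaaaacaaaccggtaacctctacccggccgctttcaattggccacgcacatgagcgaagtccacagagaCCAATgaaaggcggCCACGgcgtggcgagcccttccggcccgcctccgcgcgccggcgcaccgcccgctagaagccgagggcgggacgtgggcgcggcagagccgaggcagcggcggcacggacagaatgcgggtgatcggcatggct

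Calr (chromosome 8, 84841850 to 84846934, minus strand, GRCm38) had 8822 to 10731 normalised reads with lithium (median 9309), 7223 to 10030.5 with fluoxetine (median 7777) and 8925 to 10198 with vehicle (median 9657). The lithium and vehicle ranges coincided, and 2 fluoxetine libraries, 1 of each sex, reached into them while the other 8 lay below. The change between the drugs was 0.24 ± 0.050 (SE), or 1.18-fold, in 8 of 8 lithium libraries (limma adjusted p = 0.00787). Against vehicle, lithium had -0.01 ± 0.050 and fluoxetine -0.25 ± 0.047.

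Hspa5 had 6744 to 10558 normalised reads with lithium (median 8154), 5491 to 9179 with fluoxetine (median 5916) and 7356 to 8394 with vehicle (median 7918). The groups overlapped, but every lithium library was above the fluoxetine mean of its sex. It changed by 0.37 ± 0.095, or 1.29-fold (adjusted p = 0.0191). The largest called change in the list was that of Sdf2l1, 0.46 ± 0.136 (adjusted p = 0.0375), and the smallest that of Pdia3, 0.15 ± 0.036 (adjusted p = 0.0148). Dnajb11 had 1608 to 2082 normalised reads with lithium and 1423 to 1836 with fluoxetine, a change of 0.21 ± 0.044 (adjusted p = 0.00787). Apart from Calr, Dnajb11 and Atf4, these list members were named after their values were seen.

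For 9 of the 10 called members, fluoxetine was the drug farther from vehicle. Fluoxetine lay below vehicle by 0.12 on the log2 scale for Dnajb11, 0.18 for Hsp90b1, 0.24 for Pdia6 and 0.31 for Hspa5, while lithium lay above it by 0.08, 0.01, 0.02 and 0.05. Atf4, the transcription factor of the integrated stress response, was the exception. It had 3067 to 3916 normalised reads with lithium (median 3569), 2933 to 3310 with fluoxetine (median 3158) and 2850 to 3301 with vehicle (median 3135). Fluoxetine and vehicle covered the same range and 7 of the 8 lithium libraries lay above the highest fluoxetine library. The change between the drugs was 0.18 ± 0.039 (adjusted p = 0.0085), with 0.19 ± 0.039 for lithium and 0.01 ± 0.037 for fluoxetine against vehicle. Without WT lithium female 1 the list had 5 called members, and in the fit of WT lithium and WT fluoxetine libraries alone none was called.

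**Figure D2:**
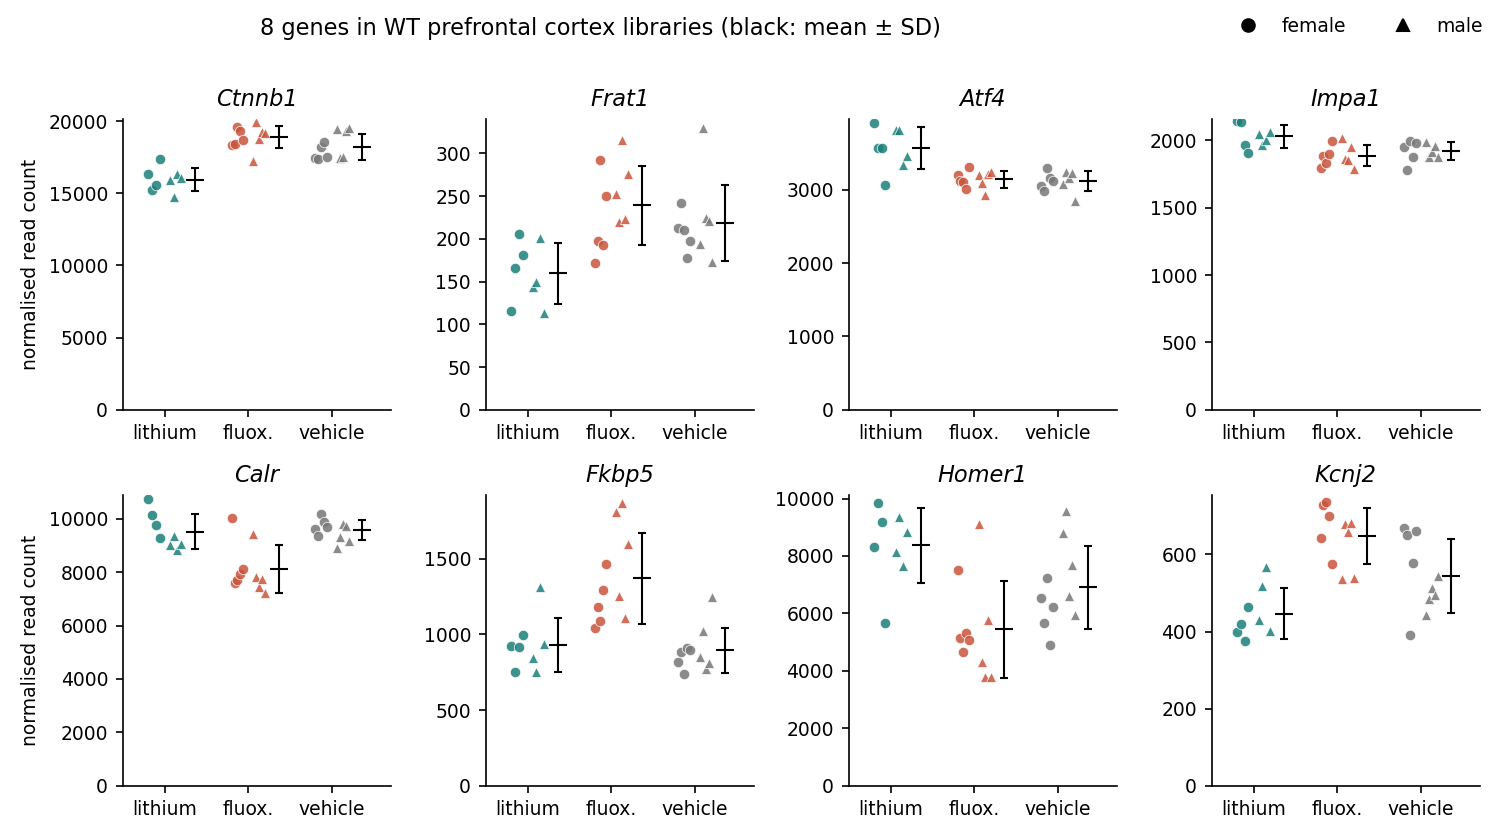
Normalised read counts (y axis, from 0) of 8 genes in each WT library with lithium, fluoxetine (fluox.) and vehicle. Circles are females, triangles are males, and black bars are the mean ± SD over both sexes (n = 8, 10 and 10). Lithium libraries lie low for Ctnnb1, Frat1 and Kcnj2 and high for Atf4, fluoxetine libraries lie low for Calr and high for Fkbp5, and the libraries of lithium and fluoxetine overlap in every panel.

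Among the genes of the pathway that lithium acts on, Ctnnb1, which encodes beta-catenin, was lower with lithium. Ctnnb1 (chromosome 9, 120929216 to 120960507, plus strand) had 14727.9 to 17362.5 normalised reads with lithium (median 15989.2), 17253.4 to 19915.5 with fluoxetine (median 18994.8) and 17371.3 to 19514.1 with vehicle (median 17855.7). Every lithium library lay below the lowest vehicle library, and 1 lithium and 1 fluoxetine library overlapped. It changed by -0.24 ± 0.039, or 0.844-fold, in 8 of 8 lithium libraries (adjusted p = 0.000427), and was called in the fit of WT lithium and WT fluoxetine libraries alone (adjusted p = 0.0108) and in all 18 fits that left out 1 library. Against vehicle, lithium had -0.19 ± 0.039 and fluoxetine 0.05 ± 0.037.

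Frat1, which encodes a GSK3-binding protein of the Wnt pathway, was lower as well. It had 114 to 206 normalised reads with lithium (median 158), 172 to 315 with fluoxetine (median 237) and 173 to 330 with vehicle (median 212). The lithium libraries lay at the low end and overlapped the lowest fluoxetine libraries. Its change was -0.59 ± 0.140, or 0.666-fold (adjusted p = 0.0133), with lithium at -0.46 ± 0.140 and fluoxetine at 0.13 ± 0.132 against vehicle. The Wnt ligand gene Wnt10b led the 12 largest negative changes among genes with means of 50 or more, at -0.94 ± 0.254 (adjusted p = 0.0251). Its normalised read count was 14.2 to 76.1 with lithium (median 44.7) and 38.7 to 133 with fluoxetine (median 79.3), at levels where few reads carry the value. Frat1 and Wnt10b were named for their size of change and are not on the Wnt list.

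In the list of Wnt, GSK3 and beta-catenin genes, 1 of 29 members was called higher and 1 lower, or 6.90%, close to the 4.83% of all genes. The one called higher was Ccnd1, the cyclin D1 gene, a known beta-catenin target, with 1436 to 1779 normalised reads with lithium, 1075 to 1505 with fluoxetine and 1263 to 1740 with vehicle. Its change was 0.28 ± 0.060 (adjusted p = 0.0085), of which fluoxetine against vehicle had -0.20 ± 0.057 and lithium 0.08 ± 0.060. Other members did not pass: the kinase genes Gsk3a and Gsk3b had -0.03 ± 0.040 and 0.10 ± 0.050, the scaffold gene Apc -0.14 ± 0.074, and the feedback gene Axin2 -0.01 ± 0.053.

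Of 18 genes of inositol recycling and transport, 2 (11.1%) were called higher and none lower, where 2.62% of all genes were called higher. Neither was called in the fit of WT lithium and WT fluoxetine libraries alone. Impa1 encodes inositol monophosphatase, the enzyme that lithium inhibits. It had 1909 to 2142 normalised reads with lithium (median 2027), 1784 to 2015 with fluoxetine (median 1875) and 1778 to 1993 with vehicle (median 1931), so that the ranges overlapped. The change was 0.11 ± 0.029, or 1.08-fold, in 8 of 8 lithium libraries (adjusted p = 0.0268), and it was called in 12 of the 18 fits that left out 1 library. Slc5a3, the sodium-coupled myo-inositol transporter gene, had 604 to 1118 normalised reads with lithium and 455 to 964 with fluoxetine, a change of 0.44 ± 0.127 (adjusted p = 0.0335), called in 7 of those 18 fits. Slc6a6, the taurine transporter gene, which like Slc5a3 is driven by the osmotic stress factor NFAT5, went the other way at -0.21 ± 0.051 (adjusted p = 0.0149). Neither Impa2, at 0.03 ± 0.105, nor Inpp1, at 0.06 ± 0.039, passed.

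Some genes that neurons induce when they fire were called higher with lithium. Of 24 immediate early and activity-induced genes, 4 (16.7%) were called higher, where 2.62% of all genes were, and none lower. The median change was 0.31, and 22 of the 24 lay above 0. Nr4a3, an orphan nuclear receptor gene, led the 12 largest positive changes. It had 549 to 2072 normalised reads with lithium (median 1501), 311 to 1339 with fluoxetine (median 607) and 428 to 1282 with vehicle (median 899.5). The ranges overlapped broadly, and 6 of 8 lithium libraries lay above the fluoxetine mean of their sex. The change was 0.93 ± 0.276, or 1.90-fold (adjusted p = 0.0396), and it was called in 5 of 18 fits without 1 library.

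Homer1, which encodes a postsynaptic scaffold with an activity-induced short form, had 5657 to 9833 normalised reads with lithium (median 8571), 3790 to 9121 with fluoxetine (median 5103) and 4884 to 9552 with vehicle (median 6567). Of the 10 fluoxetine libraries 7 lay below every lithium library, and WT fluoxetine male 1 was the highest. It changed by 0.66 ± 0.160 in 8 of 8 lithium libraries (adjusted p = 0.0142), with 0.29 ± 0.160 for lithium and -0.37 ± 0.150 for fluoxetine against vehicle. Gadd45b, a DNA damage and activity response gene, changed by 0.51 ± 0.153 (adjusted p = 0.0431), and there the distance from vehicle was 0.55 ± 0.153 for lithium and 0.04 ± 0.145 for fluoxetine. Gadd45b was called in 4 of 18 fits without 1 library. The list had 2 called members without any one of 12 of the 18 libraries, among them WT lithium female 1, and none in the fit of WT lithium and WT fluoxetine libraries alone. The cAMP response element, the letters TGAC followed directly by GTCA, was in 2 of the 18 list members with a promoter window, Btg2 and Dusp1. It was in none of the 4 called ones, and 2.03% of all genes with a window held it.

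Bdnf, the neurotrophin gene on both the activity and the neurotrophin list, had 882.5 to 1326 normalised reads with lithium (median 1159), 595 to 1052 with fluoxetine (median 882) and 733 to 1146 with vehicle (median 891.5). Lithium libraries lay at the upper end of the range. The change was 0.46 ± 0.116, or 1.38-fold (adjusted p = 0.0163), with lithium at 0.33 ± 0.116 and fluoxetine at -0.13 ± 0.109 against vehicle. In the list of neurotrophins, their receptors and CREB factors, 3 of 10 members (30.0%) were called higher, where 2.62% of all genes were, and none was called in the fit of WT lithium and WT fluoxetine libraries alone. Beside Bdnf these were Creb1, the cAMP-responsive transcription factor gene, at 0.25 ± 0.058 (adjusted p = 0.012), and Crem, at 0.25 ± 0.075 (adjusted p = 0.0423). Creb1 had 1813 to 2211 normalised reads with lithium and 1397 to 2278 with fluoxetine, and the fluoxetine maximum was 1 library, WT fluoxetine male 1.

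Further genes among the 12 largest positive changes were the growth-response factor Klf10 (0.77 ± 0.220), the membrane protein gene Tmem252 (0.77 ± 0.230), the monocarboxylate transporter gene Slc16a4 (0.67 ± 0.162), the zinc finger gene Zfp189 (0.64 ± 0.146) and the steroid dehydrogenase-family gene Akr1c14 (0.61 ± 0.151). They also included the protease inhibitor-family gene Spink10 (0.59 ± 0.131), the histone gene Hist1h2be (0.56 ± 0.175), Fam78a (0.53 ± 0.138) and Spry4, an inhibitor of growth factor signalling (0.51 ± 0.136). Histone genes have near-identical copies, so the value of Hist1h2be is uncertain. The adjusted p-values of the 12 ran from 0.0085 for Spink10 to 0.0483 for Hist1h2be, and all 12 had the same sign in both sexes. Lithium was the farther drug for 6 of the 12 and fluoxetine for the other 6, and 2 of the 12 were called in the fit of WT lithium and WT fluoxetine libraries alone.

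Glucocorticoid-induced genes were among those lower with lithium than with fluoxetine. Of 16 genes of the glucocorticoid response, 4 (25.0%) were called lower, where 2.21% of all genes were, and none higher, but the others did not follow: 8 of the 16 changes were above 0 and the median was 0.003. This list too was chosen with earlier results of these data known, so its share is no test. Fkbp5, a co-chaperone that restrains the glucocorticoid receptor and is induced by it, had 754 to 1312 normalised reads with lithium (median 920), 1044 to 1869 with fluoxetine (median 1276) and 735 to 1245 with vehicle (median 869). Lithium and vehicle covered the same range, and fluoxetine lay above most of it. The change was -0.55 ± 0.136, or 0.683-fold (adjusted p = 0.015), with lithium at 0.05 ± 0.136 and fluoxetine at 0.60 ± 0.128 against vehicle.

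Map3k6, a kinase gene, had 65.5 to 154 normalised reads with lithium (median 77.2), 97.9 to 154.5 with fluoxetine (median 124) and 46.9 to 133 with vehicle (median 59.8). Apart from WT lithium male 3, every lithium library lay below every fluoxetine library. Its change was -0.57 ± 0.150 (adjusted p = 0.0221), with 0.34 ± 0.150 for lithium and 0.91 ± 0.142 for fluoxetine against vehicle, so both drug means lay above vehicle. It lost its call without WT fluoxetine male 2, WT lithium male 2 or WT lithium male 4. Hif3a, a hypoxia-inducible factor gene, changed by -0.58 ± 0.163 (adjusted p = 0.0316) and Plin4, a lipid droplet gene at low counts, by -1.22 ± 0.306 (adjusted p = 0.0165). For all 4 genes fluoxetine was the farther drug. The palindrome of the glucocorticoid receptor, AGAACA and TGTTCT with 3 free bases between them, was searched on both strands. It was found in 0.0111% of all genes with a promoter window. These 4 genes did not hold it, and 1 of the 14 list members with a window did, Sgk1. Without WT lithium male 2 the list had 1 called gene, and without WT fluoxetine male 2 it had 2.

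Clock genes did not share a direction. Of 18 members 4 (22.2%) were called lower, where 2.21% of all genes were: the repressor genes Bhlhe41 (-0.26 ± 0.065), Per3 (-0.25 ± 0.064) and Cry1 (-0.21 ± 0.062) and the output factor Tef (-0.13 ± 0.035), with adjusted p-values of 0.0164, 0.0177, 0.0418 and 0.0242. Of the 18 changes, 11 lay above 0 and the median was 0.06. Lithium was the farther drug for Per3, at -0.23 ± 0.064 against vehicle. For Tef it was farther by little, at -0.06 ± 0.035, with fluoxetine nearly as far above vehicle. The labels give no hour of dissection. No member was called in the fit of WT lithium and WT fluoxetine libraries alone, and 2 were after removal of GC and length trends. The list had 1 called gene without WT lithium female 1 and 2 without WT lithium male 1, WT lithium male 4, WT fluoxetine male 2 or WT fluoxetine male 5.

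Kcnj2, an inward-rectifier potassium channel gene, was among the 12 largest negative changes. It had 376 to 567 normalised reads with lithium (median 425), 536 to 737 with fluoxetine (median 668) and 392 to 670 with vehicle (median 529). Vehicle lay in between and overlapped both, while lithium and fluoxetine overlapped at 1 lithium library. The change was -0.54 ± 0.116, or 0.688-fold, in 8 of 8 lithium libraries (adjusted p = 0.00794), with -0.27 ± 0.116 for lithium and 0.27 ± 0.11 for fluoxetine against vehicle. Kcnj2 stayed called without any 1 library and in the fit of WT lithium and WT fluoxetine libraries alone (adjusted p = 0.0108). The others among the 12 largest negative changes were the secreted protein gene Crispld2 (-0.80 ± 0.227), the lipoxygenase gene Alox12b (-0.75 ± 0.200), Srarp (-0.58 ± 0.167), the procollagen enhancer gene Pcolce2 (-0.58 ± 0.165), the phospholipase gene Pla2g4e (-0.54 ± 0.125) and the proprotein convertase gene Pcsk4 (-0.52 ± 0.133).

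**Figure D3:**
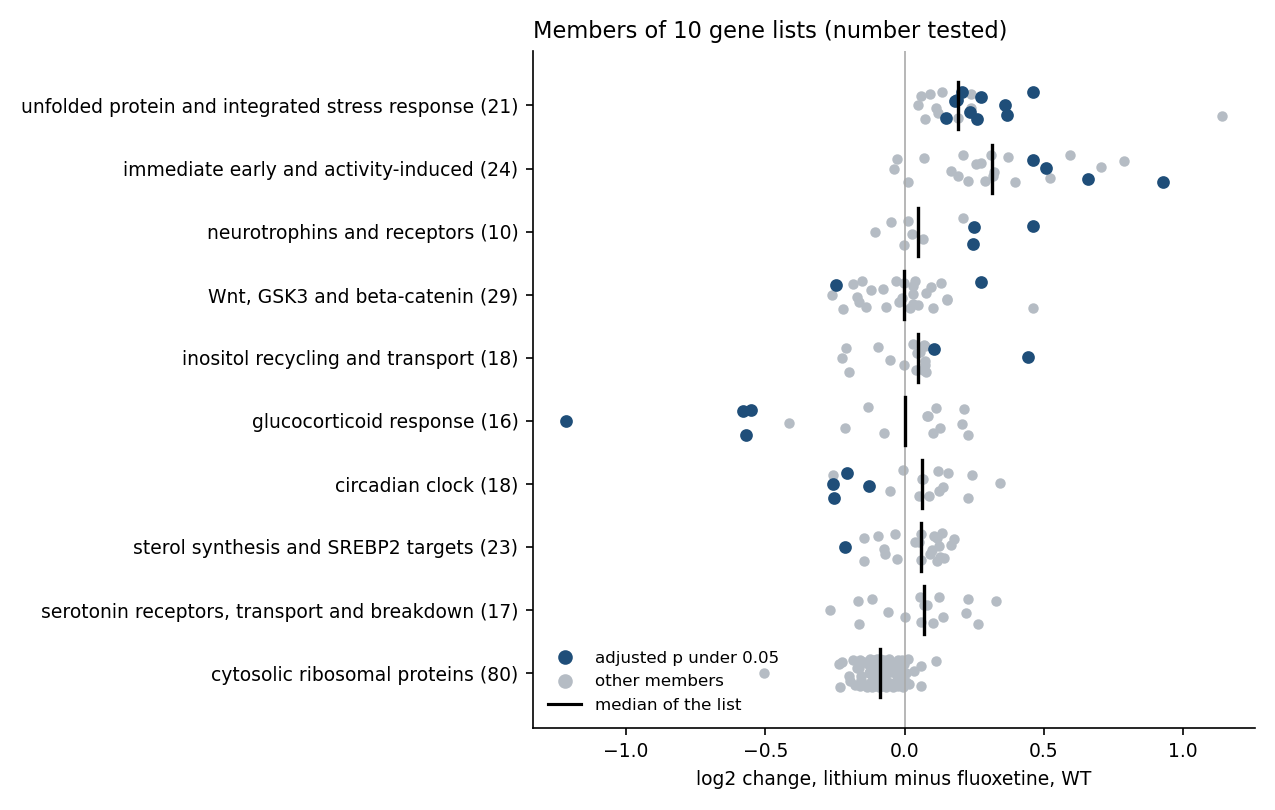
Log2 change between lithium and fluoxetine in WT (x axis, lithium minus fluoxetine) of every tested member of 10 gene lists, with the number of members in brackets. Dark points passed the threshold, grey points did not, and black ticks are list medians. The stress response list lies wholly above 0, the activity list has 22 of 24 members above 0, the 4 called glucocorticoid genes hold the most negative values of their list, and 72 of 80 ribosomal protein genes lie below 0 with none called.

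No gene of serotonin receptors, transport and breakdown was called among 17 tested. The smallest adjusted p in that list was 0.248, for the receptor gene Htr5a at 0.14 ± 0.069, and 12 of the 17 changes lay above 0. None of 28 potassium and sodium channel genes was called, of which 23 lay above 0 with a median of 0.06 (Kcnj2 is not on that list). None of 80 cytosolic ribosomal protein genes was called (smallest adjusted p = 0.0611), but 72 lay below 0 with a median of -0.09. Their reads can be shared with processed pseudogenes. Of 20 presynaptic genes, 1 was called in each direction (10%, against 4.83% of all genes), and of 20 postsynaptic genes none was. The 2 called were Cplx1, a complexin of transmitter release, at 0.19 ± 0.045 (adjusted p = 0.0125) and the vesicle protein gene Vamp1 at -0.28 ± 0.086 (adjusted p = 0.0441). In the corepressor complex to which Tbl1xr1 belongs, the deacetylase gene Hdac3 was called lower, 1 of 9 members (11.1%, against 2.21% of all genes). Its change was -0.12 ± 0.037 (adjusted p = 0.0495), and it was called in 4 of 18 fits without 1 library. In mitochondria, 2 assembly factors of complex I were called higher among 94 nuclear oxidative phosphorylation genes, Ndufaf4 at 0.23 ± 0.047 and Ndufaf1 at 0.15 ± 0.035. That is 2.13% of the list, under the 2.62% of all genes that were called higher. Among 23 genes of sterol synthesis, the reductase gene Tm7sf2 was the single call (4.35%, against 4.83% of all genes), at -0.21 ± 0.061 (adjusted p = 0.0329). No call was made among 19 thyroid hormone and retinoid response genes, 15 interferon response genes, 12 extracellular matrix genes, 15 genes of immature neurons and proliferation, or 13 mitochondrially encoded mRNAs.

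Among 14 lists of cell types and neighbouring tissues, the endothelial gene Ly6c1 at -0.31 ± 0.089 (adjusted p = 0.0329) was the single call. It was 1 of 13 endothelial genes (7.69%), and no member of the other lists was called, where 4.83% of all genes were. Microglial markers lay below 0 for 13 of 14 genes (median -0.08) and leptomeningeal and collagen genes for 13 of 15 (median -0.14). The microglial median was -0.13 in WT females, -0.09 in WT males and -0.03 in HT. That of the leptomeningeal and collagen genes was -0.03 in WT females, -0.25 in WT males and 0.03 in HT. In bulk tissue, fewer cells of a type and less RNA per cell cannot be told apart. The median change was -0.04 for 13 striatal genes and 0.04 for 12 olfactory bulb genes over both sexes. Without the striatum-rich libraries WT fluoxetine female 1 and WT fluoxetine male 3, a set chosen after the data were seen, 699 genes were called, and the stress response list had 11 called members.

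The same contrast was read in HT mice, which share no library with the WT contrast. There 324 genes (1.95%) were called, 154 higher (0.927%) and 170 lower (1.02%) with lithium, and 2543 (15.3%) had an unadjusted p under 0.05. The libraries of both drugs did not overlap for 15 genes (0.0903%). Of the 802 genes called in WT, 50 were called in the same direction in HT, which is 6.23% of the WT calls and 15.4% of the HT calls, and 1 was called in the opposite direction. The sign was the same in both genotypes for 614 of the 802 genes, or 76.6%, where it was 57.1% over all genes tested. The changes were smaller in HT than those by which the genes had been picked in WT: the median was 0.17 in WT and 0.04 in HT for genes higher with lithium, and -0.26 in WT and -0.06 in HT for genes lower with lithium. Picking genes by their WT values makes their WT changes larger, so this gap by itself measures no difference between the genotypes.

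**Figure D4:**
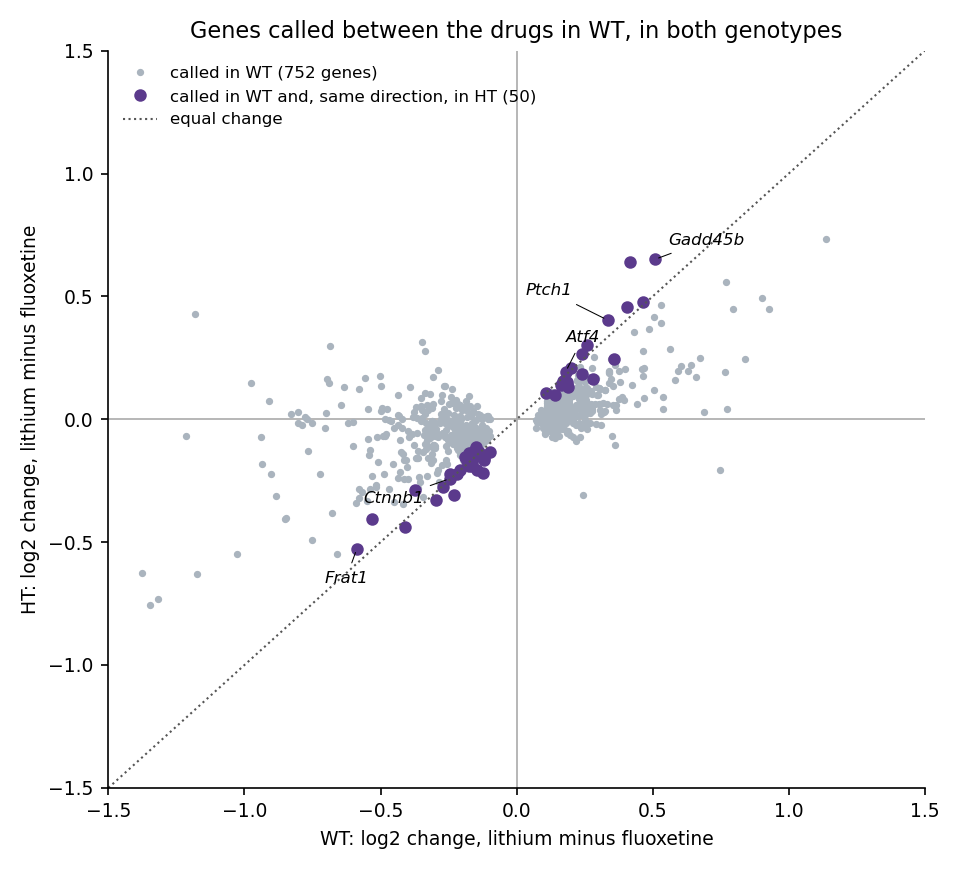
Log2 change between lithium and fluoxetine in WT (x axis) and in HT (y axis) for the 802 genes called in WT. Dark points are the 50 genes called in the same direction in HT, and the dotted line marks equal changes. All 50 lie on the same side of 0 on both axes, and only 27 of the 802 genes have a larger change in HT than in WT.

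The 50 shared genes were 18 higher and 32 lower with lithium. In WT, lithium was the drug farther from vehicle for 40 of them and fluoxetine for 10. They are named here because they were called in both genotypes, after their values were seen. Ctnnb1 changed by -0.24 ± 0.037 in HT (adjusted p = 0.000212), as large as in WT, with 14231.5 to 16786.9 normalised reads in HT lithium libraries and 16634 to 19115.5 in HT fluoxetine libraries. Frat1 changed by -0.59 ± 0.140 in WT and -0.53 ± 0.132 in HT, and Atf4 by 0.18 ± 0.039 and 0.19 ± 0.037. Gadd45b changed by 0.51 ± 0.153 in WT and 0.65 ± 0.145 in HT. The HT vehicle mean lay nearer fluoxetine than lithium for Ctnnb1, Atf4 and Gadd45b. For Frat1 it lay nearer lithium, with HT means of 165 for lithium, 183 for vehicle and 230 for fluoxetine.

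Ppp2r1a and Ppp2r5d, a scaffold and a regulatory subunit of protein phosphatase 2A, had -0.18 ± 0.047 and -0.12 ± 0.031 in WT, and -0.19 ± 0.045 and -0.16 ± 0.029 in HT. Ptch1, the hedgehog receptor gene, had 0.33 ± 0.092 in WT and 0.40 ± 0.087 in HT, and Hes1, a target of Notch signalling, 0.41 ± 0.122 and 0.46 ± 0.115. Pnck, a calmodulin kinase gene, had -0.37 ± 0.072 and -0.29 ± 0.068, Flrt3, an adhesion protein gene, -0.30 ± 0.082 and -0.33 ± 0.077, and the neutral amino acid transporter gene Slc6a15 -0.27 ± 0.065 and -0.28 ± 0.061. Sec24d, a coat protein of vesicles leaving the endoplasmic reticulum, and Mrtfa, an actin-regulated coactivator, were shared genes for which fluoxetine was the farther drug in WT, at 0.26 ± 0.057 and 0.13 ± 0.030 against vehicle.

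The gene groups did not repeat evenly. In HT, 12 of the 21 stress response genes lay above 0 with a median of 0.03. Of the 21, 2 were called higher in HT, Atf4 and Sesn2 (0.30 ± 0.063 in HT), where 0.927% of all genes were. Calr had -0.03 ± 0.047 in HT, with 8223 to 10371 normalised reads with lithium and 7920 to 11321 with fluoxetine, and the HT minus WT difference of -0.27 ± 0.069 did not pass (adjusted p = 0.141). Fkbp5 had -0.33 ± 0.128 (adjusted p = 0.167) and Map3k6 -0.30 ± 0.142 (adjusted p = 0.302) in HT. Of the activity-induced genes, 22 of 24 lay above 0 in HT as in WT, with a median of 0.63. There 8 of the 24 were called higher, among them Gadd45b, against 0.927% of all genes. The other 7 included Arc at 1.64 ± 0.375 and Npas4 at 0.83 ± 0.199 in HT, which had 0.79 ± 0.398 and 0.07 ± 0.211 in WT.

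A single gene was called for the HT minus WT difference itself (0.00602%), the noncoding transcript Gm15663 on chromosome 10, with -0.55 ± 0.098 (adjusted p = 0.0131). In WT it had 170 to 224 normalised reads with lithium (median 188), 135 to 200.4 with fluoxetine (median 158) and 182 to 238 with vehicle. In HT it had 136 to 179 with lithium (median 164) and 163 to 226 with fluoxetine (median 208). Lithium thus lay above fluoxetine in WT, by 0.25 ± 0.072, and below it in HT, by 0.31 on the log2 scale (SE 0.067). DESeq2 called 36 genes for this difference and Gm15663 was not one of them. Without WT lithium male 3 no gene was called, and without WT fluoxetine male 1 there were 130.

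Taken by sex, the contrast called 861 genes in females (5.18%), 428 higher (2.58%) and 433 lower (2.61%), and 0 in males (0%), where 2028 genes (12.2%) had an unadjusted p under 0.05. The difference between the sexes was tested directly and no gene passed by limma or by edgeR, with 2334 (14.1%) at an unadjusted p under 0.05, while DESeq2 on the recovered reads called 82. The smallest limma p-values were those of Gm21985 (2.64 ± 0.552, female minus male), Tank (0.41 ± 0.086) and Zfp760 (0.46 ± 0.101), with adjusted p-values of 0.145, 0.145 and 0.151. Of the 802 genes, 795 had the same sign in both sexes, which choosing them on the mean of both sexes favours, and 566 were larger in females. The median change of the genes higher with lithium was 0.21 in females and 0.15 in males, and of those lower with lithium -0.30 in females and -0.20 in males. Dissection moved with the drug within each sex: the median change of the 12 olfactory bulb genes was 1.47 in females and -1.30 in males, and that of the striatal genes 0.23 and -0.24. Their part in the numbers by sex was not tested.

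The WT contrast also followed the base composition of the genes. Across 16595 genes with a known sequence, Spearman's rho between the change and GC content was -0.257, a description over genes, which are not independent. It was -0.365 in WT females, 0.019 in WT males and -0.029 in HT. The median GC content was 45.3% for genes higher with lithium, 54.8% for genes lower with lithium and 50.4% for all genes tested. Against vehicle, rho was 0.001 for lithium and 0.326 for fluoxetine. After removal of each library's GC and length trend, 469 genes were called, 307 higher and 162 lower, and 373 of them were among the 802. The stress response list then had 11 called members, the activity list 4 and the glucocorticoid list 2, Ctnnb1 had -0.21 (adjusted p = 0.00288) and Kcnj2 -0.57 (adjusted p = 0.0119). Of the 48 called genes that the naming rule picked, 13 did not pass: Crem (adjusted p = 0.0829), Hdac3 (adjusted p = 0.152), Hif3a (adjusted p = 0.0654), Hist1h2be (adjusted p = 0.0695), Impa1 (adjusted p = 0.153), Map3k6 (adjusted p = 0.0515), Rab34 (adjusted p = 0.107), Slc6a6 (adjusted p = 0.0948), Srarp (adjusted p = 0.06), Tef (adjusted p = 0.152), Tm7sf2 (adjusted p = 0.11), Tmem252 (adjusted p = 0.0583) and Vamp1 (adjusted p = 0.105).

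**Figure D5:**
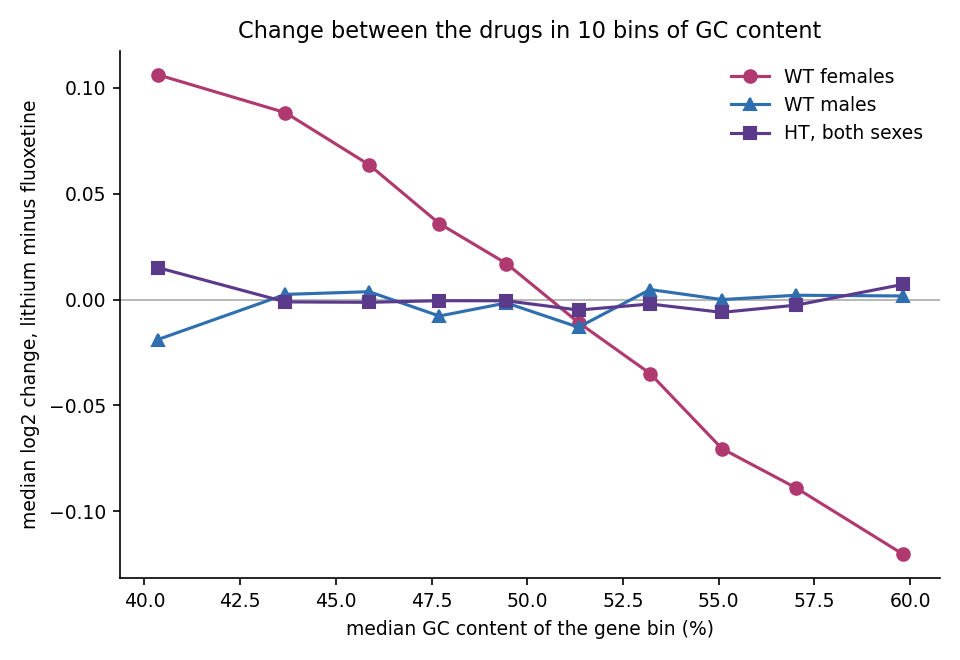
Median log2 change, lithium minus fluoxetine (y axis), of genes in 10 bins of GC content (x axis, median GC of the bin in percent) for WT females, WT males and HT mice of both sexes. WT females fall from 0.11 in the bin lowest in GC to -0.12 in the highest, while WT males and HT stay within 0.02 of 0.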

How the data were processed

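RNA-seq of prefrontal cortex was deposited as 1 table of 18088 genes by 58 libraries. Its values are a signal that the authors normalised: read counts divided by a size factor per library. The submitters' processing notes name Salmon 0.11.2, R 3.6.0, DESeq2 1.19.11 and GRCm38. Whole reads were recovered for 100% of values (tolerance 0.0001), giving 22901678 to 35008274 reads per library. GENCODE M21 named 18077 genes. No source used here says whether counting used strand, so overlapping genes are uncertain.

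Values were tested as log2(value + 1), a scale that understates changes of low genes, with limma 3.58.1 (trend, R 4.3.3). Genes with a mean of at least 10 entered, 16606 in all, in 1 model of 12 groups (genotype, treatment and sex) with 46 residual degrees of freedom. Sexes had equal weight, and p-values were adjusted by Benjamini-Hochberg. The test was checked on simulated data.

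Genes named were the 12 largest called changes each way (mean at least 50, no predicted, clone or Rik names), up to 3 called members of each of 35 lists with the smallest p (or 3 uncalled ones), and the 3 leading genes of the sex and genotype differences. Others were chosen after their values were seen. Members and lists were chosen with earlier results of these data known. Alternatives were edgeR 4.0.16 and DESeq2 1.42.0 on recovered reads, pseudocounts of 0.5 and 5, other filters, scalings, weights and covariates, a GC and length correction, a replicate block, only the groups compared, each sex, and leaving out each library.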

Additional observations from a re-analysis of the deposited data

Results flagged for a closer look

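In 5 cases 1 library stood apart from the others of its drug, sexes pooled, by Dixon's 95% criterion. Among 96 gene and group combinations tested, chance alone flags about 1 in 20. WT lithium male 3 had 1311.7 normalised reads of Fkbp5, where the next library had 998.5, and 154.3 of Map3k6, where the next had 85.5. WT fluoxetine male 1 had 2278.2 normalised reads of Creb1 (next 1844.9), 447.7 of Zfp189 (next 296.0) and 4488.8 of Slc6a6 (next 5404.9). In each case the library lay on the side of the other drug.

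The lithium minus fluoxetine change of Gm15663 differed between the genotypes by -0.55 on the log2 scale (HT minus WT) by limma's test of that difference.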

How the results depend on the processing

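The 48 called genes picked by the naming rule kept their direction in all 959 values under other settings and their call in 783, and in all 864 values leaving out 1 library, with the call in 662. The 802 calls became 1925 with array weights (801 kept), 1263 with an olfactory bulb covariate, 469 after GC and length correction, 100 with only the groups compared and 0 in males alone, where 7 of the 802 had the opposite sign. edgeR gave 785 and DESeq2 1093. The 5 lithium calls against vehicle became 3 with upper-quartile rescaling and 39 by DESeq2, and the 61 fluoxetine calls 229 by DESeq2. DESeq2 gave 82 calls for the sex difference and 36 for the genotype difference. The causes were not tested.

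Replicate numbers did not pair the samples: over 8 pairs, correlations ran from -0.319 to 0.218, and in 1 pair the own number correlated best. The replicate block gave 498 calls between the drugs (491 kept), 3 for lithium and 32 for fluoxetine against vehicle.

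Leaving out 1 library gave 342 to 1498 calls between the drugs, 0 to 44 for lithium and 18 to 347 for fluoxetine against vehicle, 0 to 6 for the sex difference, 210 to 482 in HT and 0 to 130 for the genotype difference. WT lithium female 4 gave the 44, WT fluoxetine male 1 the 347 and the 130, WT fluoxetine female 1 the 6 and HT lithium male 3 the 210. Litter is not labelled.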

Other observations

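Other endoplasmic reticulum and cilium genes, named after their values were seen and not tested as groups, were also called between the drugs. Canx, a lectin chaperone like Calr, was among the 31 genes also called for fluoxetine against vehicle. So were Bbs7, Mkks and Rpgrip1l, genes of cilia and their base. None of these was called in HT, where Canx had -0.03 ± 0.037, Bbs7 -0.05 ± 0.045, Mkks 0.13 ± 0.049 and Rpgrip1l 0.03 ± 0.054. The cilium gene Ift80, by contrast, was called higher with lithium in HT as in WT, at 0.16 ± 0.042 in HT (limma adjusted p = 0.0256). The GC content of Canx, Bbs7, Mkks and Rpgrip1l was 42.3% to 44.0%, where the median of all genes tested was 50.4%.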
